A study of Arabidopsis thaliana with 11 samples.

Results

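The 5 genes described here, CLV3, POL, RBL, ULT1 and LCR, are regulators of the shoot meristem, and their transcript levels were compared among torpedo-stage embryos of 7 Arabidopsis thaliana accessions. They were chosen as genes to which the platform annotation gives probe sets under these symbols alone, with the brightest probe set used for each gene, and they are 5 of the 13356 genes with a probe set of their own. Tests ran over all 22746 probe sets. The symbol RBL stands on 2 probe sets of different genes. The brighter one belongs to REBELOTE and was used, and the other belongs to a gene named after the RBBP5 protein.

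The shoot meristem keeps a small pool of stem cells above an organizing centre that expresses the homeodomain gene WUSCHEL. Stem cells secrete the CLV3 peptide, which limits WUSCHEL through receptor kinases, and phosphatases such as POL act downstream of these receptors to sustain stem cell fate. The Argonaute protein ZWILLE/ARGONAUTE10 (ZLL) maintains the stem cells during embryo development, and accessions differ in whether they need it.

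Arrays were hybridised with RNA of whole embryos of wild-type accessions dissected out of seeds, with many embryos pooled for an array. No zll mutant or treatment was included. Ler carries the erecta mutation, which Fe-1 lacks according to the study, and its effect on the levels described here was not tested. In 4 accessions the shoot stem cells require ZLL (ZLL-dependent): Bay-0, Fe-1, Ler-0 and Nw-0. In 3 they do not (ZLL-independent): Ts-1, Van-0 and Col-0. Fe-1 and Col-0 had 3 arrays each, which their labels call biological replicates, and the other accessions had 1 array each, which gave 6 ZLL-dependent and 5 ZLL-independent arrays. Titles were followed where labels disagreed, since the Ler-0 array is also called Ler-1 and the Ts-1 array also carries the name Tossa del Mar-0. Plants were grown on soil under standard laboratory conditions.

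Values are log2 signals after RMA, a normalization that brings all arrays to 1 distribution, and a difference of 1 on this scale is a doubling. Medians of the 11 arrays lay between 7.57 and 7.71, and lower quartiles between 4.92 and 5.04. Over all probe sets the correlation between arrays was 0.996 to 0.997 within Fe-1 or Col-0 and 0.978 to 0.988 between accessions. None of the 7 embryo markers of the list had a probe set of its own in the annotation used, so their signals were not read. OLEO3, an oil body protein of seeds, was added in their place, and its signal was 12.91 to 13.20 in every array. As a seed gene it does not tell embryo from other seed tissue. Of 6 seed coat markers 2 had such a probe set, BAN and DFR, enzymes of the pigment pathway of the seed coat. Their summed signal was 6.03 to 10.18 in ZLL-dependent and 6.17 to 8.52 in ZLL-independent arrays. BAN was highest in Fe-1 replicates 2 and 3 (8.77 and 7.40) and in Van-0 (7.61), against 4.67 to 5.95 elsewhere. DFR was highest in Fe-1 replicate 2 (9.51), then in Ler-0 (7.97), Fe-1 replicate 3 (7.53) and Van-0 (7.43), against 5.28 to 6.33 elsewhere. The endosperm regulator AGL62, the only one of 6 endosperm markers with such a probe set, lay at 3.53 to 4.0, under the lower quartile of the arrays. This single dim gene does not tell whether endosperm was present in the samples. In whole embryos, fewer meristem cells and less RNA per meristem cell cannot be told apart. The chip was designed on the Col-0 sequence, and mismatches of its probes to other accessions were not tested.

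CLV3 was the member that varied most between accessions, and it was lower in the ZLL-dependent ones. CLV3 (AT2G27250, chromosome 2) encodes the secreted peptide that stem cells use to restrain the organizing centre. Its signal was 4.96 in Bay-0, 5.27, 5.33 and 5.25 in Fe-1, 5.42 in Ler-0 and 4.73 in Nw-0, against 6.05 in Ts-1, 6.12 in Van-0 and 5.36, 5.38 and 5.88 in Col-0. Nw-0 and Bay-0 were lowest and Van-0 and Ts-1 highest. The accession means of the ZLL groups did not overlap, as for 5.74% of all probe sets. Single arrays did overlap, because Ler-0 lay above 2 of the Col-0 arrays. All CLV3 signals were in the lower part of the array range, and those of Bay-0 and Nw-0 were at or under the lower quartiles, where RMA compresses differences. The file holds no detection calls, so whether CLV3 exceeded background in these accessions was not tested.

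POL and RBL had the opposite direction, with the lowest signals in Col-0. POL (AT2G46920, chromosome 2), or POLTERGEIST, is a protein phosphatase that promotes stem cell identity and opposes the CLV pathway. POL gave 10.28 in Bay-0, 10.09, 9.90 and 9.99 in Fe-1, 10.08 in Ler-0 and 9.98 in Nw-0, against 9.84 in Ts-1, 9.90 in Van-0 and 9.48, 9.74 and 9.45 in Col-0. Every ZLL-dependent array was at or above every ZLL-independent one, with a tie between Fe-1 replicate 2 and Van-0. Arrays of the ZLL groups did not overlap, without a tie, for 2.14% of all probe sets. All 3 Col-0 arrays were below all other arrays, and 12.2% of all probe sets had Col-0 arrays apart in either direction.

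RBL (AT3G55510, chromosome 3), or REBELOTE, acts redundantly with ULT1 and SQN to end stem cell activity in the floral meristem. RBL gave 10.32 in Bay-0, 10.26, 10.17 and 10.08 in Fe-1, 9.70 in Ler-0 and 9.94 in Nw-0, against 9.85 in Ts-1, 9.86 in Van-0 and 9.69, 9.33 and 9.50 in Col-0. Ler-0 had the lowest signal of the ZLL-dependent accessions and also lay under Ts-1 and Van-0, but it was not separated from any of the other accessions past the threshold. The Col-0 arrays were again below all others, against 12.2% of all probe sets with Col-0 apart in either direction. Col-0 replicate 1 and Ler-0 differed, however, by less than the spread between replicates.

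ULT1 and LCR varied little. ULT1 (AT4G28190, chromosome 4), or ULTRAPETALA1, is a trithorax-group factor that restricts the size of shoot and floral meristems. Its signal was 12.54 in Bay-0, 12.55, 12.54 and 12.64 in Fe-1, 12.63 in Ler-0 and 12.45 in Nw-0, against 12.54 in Ts-1, 12.55 in Van-0 and 12.47, 12.57 and 12.69 in Col-0, so that both groups covered nearly the same range. LCR (AT1G27340, chromosome 1) encodes an F-box protein, LEAF CURLING RESPONSIVENESS, which is repressed by miR394, a mobile signal from the protoderm that keeps the cells below it competent to be stem cells. LCR gave 9.16 in Bay-0, 9.45, 9.39 and 9.56 in Fe-1, 9.51 in Ler-0 and 9.52 in Nw-0, against 9.34 in Ts-1, 9.33 in Van-0 and 9.27, 9.43 and 9.39 in Col-0. Bay-0 was lowest of all. Of the other ZLL-dependent arrays only Fe-1 replicate 2 lay within the Col-0 range, and the rest lay above every ZLL-independent array.

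**Figure D1:**
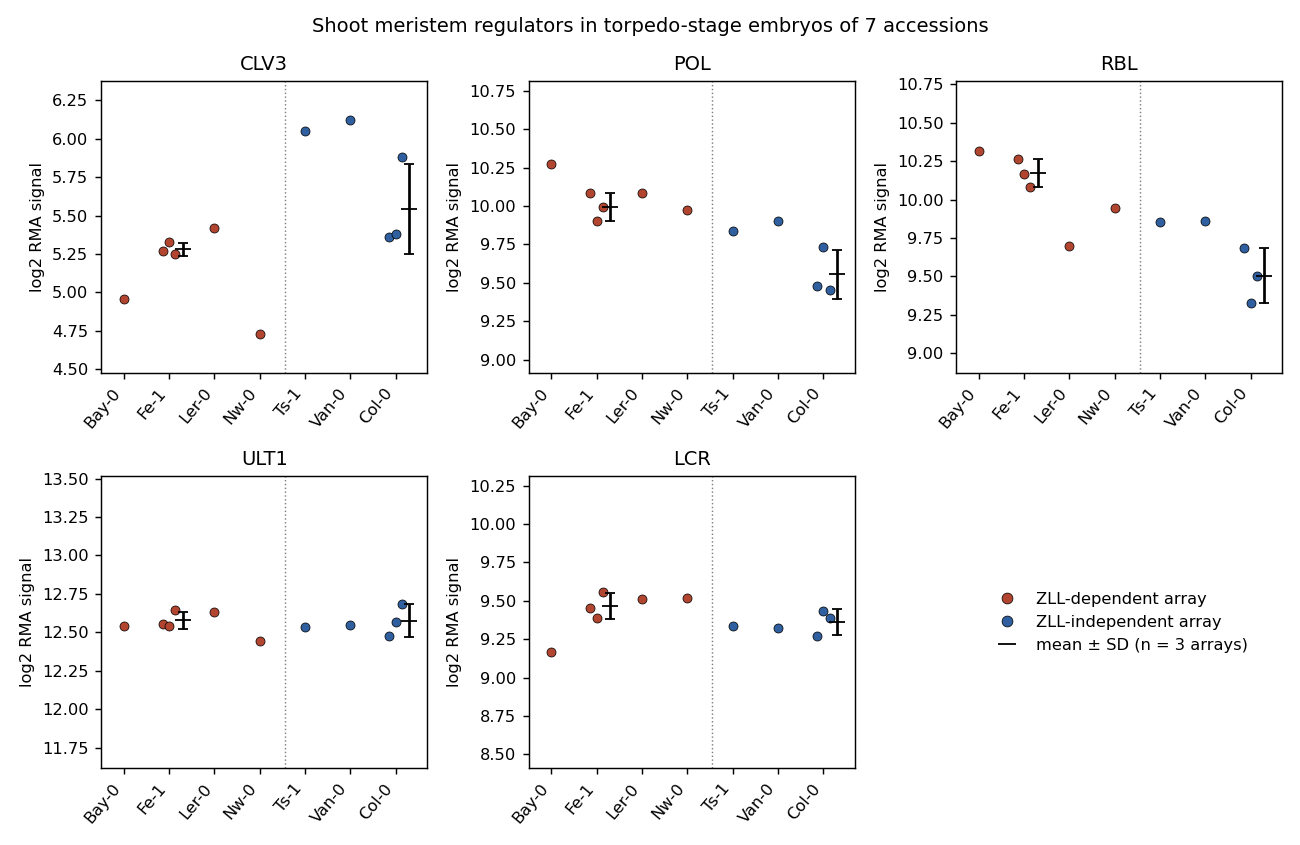
Log2 RMA signal (vertical axes, each spanning the same range) of the 5 regulators by accession, with 1 point per array, ZLL-dependent accessions in red left of the dotted line and ZLL-independent ones in blue right of it, and mean ± SD for the 3 arrays of Fe-1 and of Col-0. CLV3 is at 4.73 to 5.42 in ZLL-dependent and 5.36 to 6.12 in ZLL-independent arrays, POL and RBL are lowest in Col-0, and ULT1 stays between 12.45 and 12.69.

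To ask how far the accessions differed at all, the means of the 7 accessions were compared with a moderated F test, whose error came from the 3 arrays each of Fe-1 and Col-0 and was taken to hold for the accessions with 1 array. Of the 5 genes 3 passed at an adjusted p under 0.05: CLV3 (0.0178), RBL (0.0196) and POL (0.0384), whereas LCR (0.303) and ULT1 (0.906) did not. Over all probe sets 31% passed. The count was 1 of 5 without Col-0 replicate 3 and 0 of 5 with an unmoderated F statistic.

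The accession means of CLV3 spanned 1.39, against a residual SD of 0.21 between replicates. RBL spanned 0.81 (residual SD 0.14), POL 0.72 (0.13), LCR 0.36 (0.085) and ULT1 0.19 (0.085), and the median residual SD of all probe sets was 0.113. The spread of CLV3 between accessions exceeded that of 92.1% of probe sets, that of RBL 74.2% and that of POL 64.7%. LCR exceeded 32.9% and ULT1 4.03%. ULT1 was therefore among the evenest transcripts in this comparison and CLV3 among the more variable ones. ULT1 lay above the upper quartiles of the arrays (9.62 to 9.69), and whether so bright a signal hid differences was not tested.

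From high to low, the CLV3 order was Van-0, Ts-1, Col-0, Ler-0, Fe-1, Bay-0 and Nw-0, with all ZLL-independent accessions ahead of all ZLL-dependent ones. The order for POL was Bay-0, Ler-0, Fe-1, Nw-0, Van-0, Ts-1 and Col-0, with the groups again in 2 blocks. For RBL it was Bay-0, Fe-1, Nw-0, Van-0, Ts-1, Ler-0 and Col-0, in which Ler-0 interrupted the ZLL-dependent accessions. ULT1 ran from Ler-0 through Fe-1, Col-0, Van-0, Bay-0 and Ts-1 to Nw-0, and LCR from Nw-0 through Ler-0, Fe-1, Col-0, Ts-1 and Van-0 to Bay-0. Neighbours in these orders were not separated for any of the 5 genes, the lowest adjusted p of a neighbouring pair being 0.174, for Ts-1 and Col-0 in CLV3.

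Differences between more distant accessions did pass for 3 of the genes. For CLV3, 6 of the 12 pairs of a ZLL-dependent with a ZLL-independent accession passed, all lower in the ZLL-dependent one. Over all probe sets 9.84% of such single tests passed. Pairs of a gene share accession means, so they are not separate results, and the share of genes with as many passing pairs was not counted. Nw-0 was lower than Van-0 by 1.39 (adjusted p = 0.0184), Ts-1 by 1.32 (adjusted p = 0.0253) and Col-0, and Bay-0 was lower than Van-0 by 1.17 (adjusted p = 0.0372) and Ts-1 by 1.10 (adjusted p = 0.0487). Fe-1 was lower than Van-0 by 0.84 (adjusted p = 0.0394). The 4 differences of Nw-0 and Bay-0 from Van-0 and Ts-1 set 1 array against 1, so their p-values rest wholly on the spread between replicates of Fe-1 and Col-0. Of the 12 pairs, 3 passed for POL and 2 for RBL, each with Col-0 as the lower accession, and none for ULT1 or LCR. Among the 9 pairs inside a ZLL group none passed for any of the 5 genes, against 8.74% of such tests over all probe sets.

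Set against Col-0, the reference accession, POL was higher in 3 accessions. In Bay-0 the POL difference was 0.72 (SE 0.14, adjusted p = 0.0148), in Ler-0 0.53 (SE 0.14, adjusted p = 0.0435) and in Fe-1 0.44. The Bay-0 difference passed in each of the fits that left out 1 array, but that of Ler-0 was lost without Col-0 replicate 1 (adjusted p = 0.104), Col-0 replicate 3 (0.0864) or any 1 of the Fe-1 arrays (0.0590 to 0.0652). POL differences of 0.42 in Nw-0, 0.35 in Van-0 and 0.29 in Ts-1 did not pass (adjusted p = 0.112, 0.141 and 0.272).

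RBL was higher in Bay-0 by 0.81 (SE 0.15, adjusted p = 0.0125) and in Fe-1 by 0.67. Nw-0, Van-0 and Ts-1 were 0.44, 0.36 and 0.35 above Col-0 and Ler-0 was 0.19 above it, none past the threshold (adjusted p = 0.12, 0.155, 0.213 and 0.475). The RBL signal of Col-0 was thus the lowest of the 7 accessions, but only Bay-0 and Fe-1 were separated from it.

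CLV3 was on both sides of Col-0. It was 0.81 lower in Nw-0 (SE 0.20, adjusted p = 0.0479), a call lost in 5 of the fits with 1 array fewer, namely without Col-0 replicate 1 (0.0579), Col-0 replicate 2 (0.0544) or any 1 of the Fe-1 arrays (0.0744 to 0.0758). Bay-0 was 0.59 lower, and Van-0 and Ts-1 were 0.58 and 0.51 higher, with adjusted p of 0.0936, 0.0968 and 0.174. Over all probe sets 14.2% passed between Bay-0 and Col-0, 13.8% for Ler-0, 8.39% for Nw-0, 8.18% for Ts-1 and 13.5% for Van-0, beside 2, 1, 1, 0 and 0 of the 5 genes. At an unadjusted p under 0.05, 2 of the 5 genes differed between Ts-1 and Col-0 and 3 between Van-0 and Col-0, against 23% and 29.5% of all probe sets. ULT1 and LCR did not pass in any accession, their differences from Col-0 lying between -0.20 and 0.16.

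**Figure D2:**
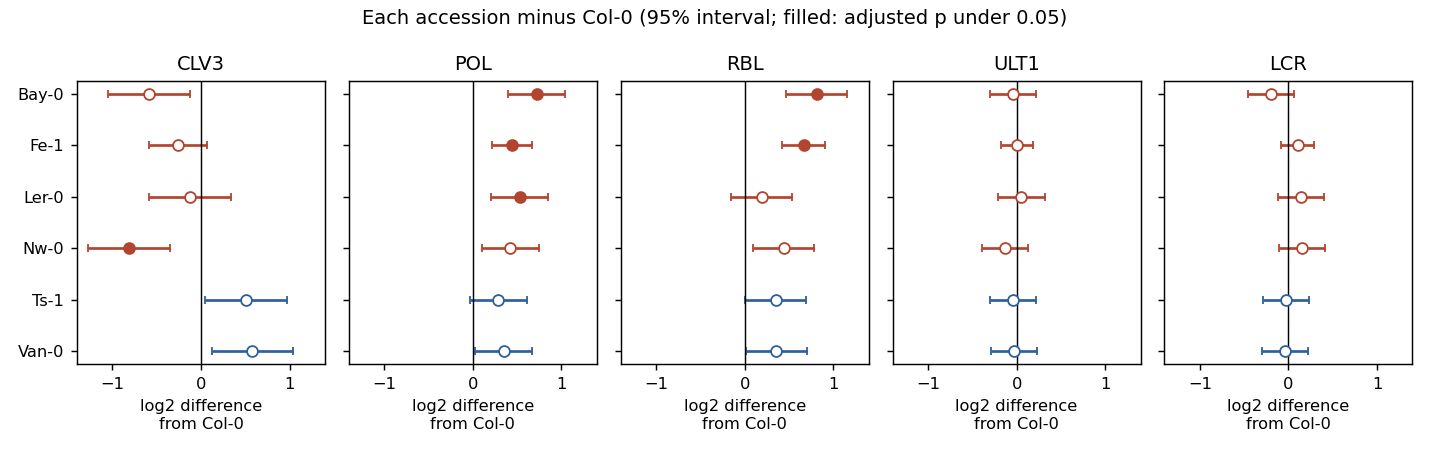
Log2 difference of each accession from Col-0 (horizontal axes) for the 5 regulators, with 95% confidence intervals from the fit of accession means, ZLL-dependent accessions in red above ZLL-independent ones in blue, and filled points where the adjusted p was under 0.05. POL and RBL are right of 0 in every accession, and CLV3 is left of it in the 4 ZLL-dependent accessions and right of it in Ts-1 and Van-0.

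Fe-1 against Col-0 is the only contrast of accessions in which both sides were replicated. POL averaged 9.99 ± 0.09 in Fe-1 and 9.55 ± 0.16 in Col-0 (SD, n = 3 each), a difference of 0.44 (SE 0.10, 1.36-fold, adjusted p = 0.0132). RBL averaged 10.17 ± 0.09 in Fe-1 and 9.50 ± 0.18 in Col-0, a difference of 0.67 (SE 0.10, 1.59-fold, adjusted p = 0.00312). Both were higher in each Fe-1 array than in any Col-0 array. They were 2 of 5 genes called, against 29.3% of all probe sets, 17.8% in this direction. Of all called probe sets 60.9% were higher in Fe-1, and 41.9% after each array was centred on its median, where POL (0.34) and RBL (0.57) stayed called. Neither reached the 3-fold change that 1.4% of all probe sets also reached. At an unadjusted p under 0.05 the count was also 2 of 5, against 40.4%.

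CLV3 averaged 5.28 ± 0.04 in Fe-1 and 5.54 ± 0.30 in Col-0. Its arrays did not overlap either, so that 3 of the 5 genes had separate arrays, against 45.7% of all probe sets. The CLV3 difference of -0.26 (95% interval -0.59 to 0.06) did not pass, with an adjusted p of 0.204. The wide Col-0 spread came from replicate 3, and without it the difference was -0.09.

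LCR (9.47 ± 0.09 in Fe-1 and 9.36 ± 0.08 in Col-0) and ULT1 (12.58 ± 0.06 in Fe-1 and 12.58 ± 0.11 in Col-0) did not pass, and their 95% intervals were -0.08 to 0.29 and -0.18 to 0.19. The POL and RBL differences were as large without the 3 arrays of highest BAN signal, at 0.53 for POL and 0.76 for RBL, but with 1 Fe-1 array left they did not pass (adjusted p = 0.0983 and 0.0556). POL was also not called with an unmoderated statistic (adjusted p = 0.0644). The gene that shares the symbol RBL (AT3G21060) was 0.27 higher in Fe-1 (adjusted p = 0.0195).

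When all arrays were grouped by ZLL dependency, no member passed. CLV3 averaged 5.16 ± 0.26 in ZLL-dependent and 5.76 ± 0.37 in ZLL-independent arrays (SD, n = 6 and 5), a difference of -0.60 (SE 0.17, 95% interval -0.98 to -0.22, 1.52-fold lower, adjusted p = 0.121). POL averaged 10.05 ± 0.13 in ZLL-dependent and 9.68 ± 0.21 in ZLL-independent arrays, with a difference of 0.37 (SE 0.10, 95% interval 0.15 to 0.59, adjusted p = 0.104). RBL averaged 10.08 ± 0.23 in ZLL-dependent and 9.65 ± 0.23 in ZLL-independent arrays, with a difference of 0.43 (SE 0.13, 95% interval 0.14 to 0.72, adjusted p = 0.136). These intervals take arrays as independent replicates, although 3 arrays of each group came from 1 accession. With accession as a random block the SE was larger, at 0.22 for CLV3, 0.13 for POL and 0.17 for RBL. With limma 0 of 5 genes were called, against 0.448% of all probe sets (0.0528% with at least 3-fold), and at an unadjusted p under 0.05 these 3 of 5 would have been, against 17.4%.

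For ULT1 the difference was -0.0033 (95% interval -0.13 to 0.12) and for LCR 0.08 (95% interval -0.08 to 0.24), and both intervals included 0. For POL and RBL the call changed with 1 array. RBL passed without Ler-0 (0.51, adjusted p = 0.0470), the ZLL-dependent accession with the lowest RBL signal, and POL passed without Van-0 (0.43, adjusted p = 0.0423).

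The differences of POL and RBL leaned on Col-0, whereas that of CLV3 did not. In a comparison added after the values were seen, which left out the 3 Col-0 arrays, the 4 ZLL-dependent accessions exceeded Ts-1 and Van-0 by 0.18 for POL (SE 0.10, adjusted p = 0.723) and by 0.22 for RBL (SE 0.16, adjusted p = 0.794). CLV3 was lower by 0.93 in the same comparison (SE 0.18, adjusted p = 0.202). Without the 3 Fe-1 arrays, the differences were -0.73 for CLV3, 0.43 for POL and 0.34 for RBL.

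Because arrays of an accession resemble each other, the accessions were also given equal weight. In the fit of accession means, CLV3 averaged 5.10 over the 4 ZLL-dependent and 5.91 over the 3 ZLL-independent accessions, and the difference of -0.81 passed (SE 0.12, 95% interval -1.08 to -0.54, 1.75-fold lower, adjusted p = 0.00607). It was the only one of the 5 genes called here, against 10% of all probe sets, and the difference was -0.92 to -0.69 with adjusted p of 0.00113 to 0.0167 when each array was left out in turn. POL (0.32, adjusted p = 0.0517) and RBL (0.29, adjusted p = 0.0828) did not pass, although POL did without Col-0 replicate 2, Nw-0, Ts-1 or Van-0 (adjusted p = 0.0265, 0.0409, 0.0455 and 0.0291) and RBL did without Ler-0 (0.0316). The error of this fit came only from the replicates of Fe-1 and Col-0, so it applies to these 7 accessions and holds no spread among accessions of a group.

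With 1 mean per accession as the replicate, 4 against 3, the spread among accessions entered the test. An exact two-sided permutation test of the accession means, which has 35 splits and cannot go below p = 0.0286, gave that smallest p for both CLV3 and POL, 0.20 for RBL, 0.60 for LCR and 0.886 for ULT1. CLV3 and POL were thus the 2 of 5 genes whose accession means did not overlap between the groups, against 5.74% of all probe sets. In limma with these means the adjusted p was 0.942 for each of them, and 0.0132% of all probe sets passed. At an unadjusted p under 0.05, 2 of 5 genes passed, against 4.99% of all probe sets.

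**Figure D3:**
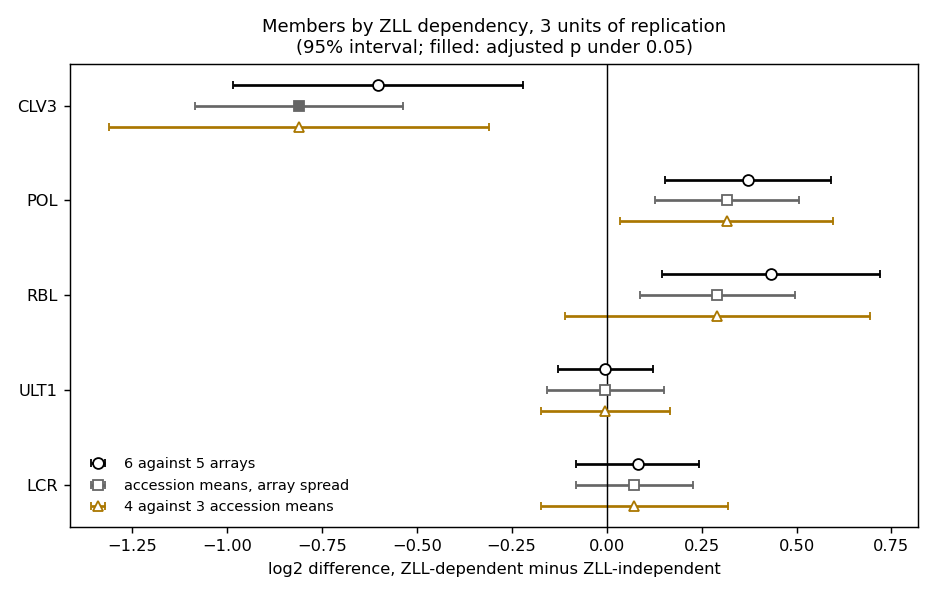
Log2 difference of ZLL-dependent minus ZLL-independent (horizontal axis) with 95% confidence intervals for the 5 regulators, with arrays as replicates (circles), with accession means and the spread between arrays (squares), and with accession means as replicates (triangles). Only the CLV3 square, at -0.81, is filled for an adjusted p under 0.05, and the ULT1 and LCR intervals include 0 in all 3 fits.

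POL and RBL followed each other across arrays, with a Pearson correlation of 0.72 over the 11 arrays and 0.78 over the 7 accession means. The correlations of the other pairs of members over arrays lay between -0.44, for CLV3 with POL, and 0.38, for CLV3 with ULT1. These are descriptions over arrays of which 6 come from 2 accessions. Among 9609 probe sets with 1 gene and a mean above the lower quartile, the patterns most like CLV3 were those of AT3G20450 (0.92), AT4G20930 (0.91) and AT4G10060 (0.90). For POL they were AT5G61300 (0.95), AT5G67390 (0.93) and AT5G59410 (0.93), and for RBL AT1G51550 (0.98), AT5G60990 (0.97) and AT5G39900 (0.97). ULT1 was matched most closely by AT3G63040 (0.85), AT1G66130 (0.81) and AT1G76290 (0.81), and LCR by AT4G23330 (0.86), AT1G60630 (0.85) and the subtilase gene SBT3.12 (0.84).

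Of the other genes of the meristem pathways few could be named on the chip with the annotation used. Of 12 genes of CLAVATA signalling 1 was measured, of 5 that end floral meristem activity 1, of 18 other shoot meristem regulators 2 and of 7 in the ZLL pathway 1, and none of the 5 POL-like phosphatases, the 7 WUSCHEL-related genes or the 12 KNOX, BELL and boundary genes. CLE40, a peptide related to CLV3 that acts in the root meristem, was 0.81 lower in Fe-1 than in Col-0 (SE 0.17, adjusted p = 0.0108). ARR15, a negative regulator of cytokinin signalling, was also 0.81 lower in Fe-1 (SE 0.11, adjusted p = 0.00196). SQN, a cyclophilin that acts with RBL and ULT1 in the floral meristem, was 2.65 higher in Fe-1 (SE 0.08, adjusted p = 1.35e-06) on its brighter probe set, while the other probe set lay at 3.60 to 3.85 and did not differ. OBE1 and PHV did not pass in this contrast, in which 29.3% of all probe sets did. PHV passed the moderated F test among the 7 accessions (adjusted p = 0.0476), as did 31% of all probe sets. It was higher than in Col-0 by 0.48 in Bay-0 and by 0.42 in Ler-0, both past the threshold, against 14.2% and 13.8% of all probe sets. Its Col-0 arrays lay below all others, against 12.2% of all probe sets with Col-0 apart in either direction.

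ARR15 had the same order of groups as CLV3. Its signal was 6.60 in Bay-0, 6.27, 6.10 and 6.11 in Fe-1, 5.62 in Ler-0 and 6.72 in Nw-0, against 7.65 in Ts-1, 6.75 in Van-0 and 6.75, 6.98 and 7.16 in Col-0. The groups did not overlap, as for 2.14% of all probe sets and none of the 5 regulators. The difference of -0.82 did not pass over arrays (SE 0.21, adjusted p = 0.0954) and passed in the fit of accession means at -0.85 (adjusted p = 0.00203), but not with 1 mean per accession (adjusted p = 0.942), the fit that holds the spread among accessions. SQN was 6.55 in Bay-0, 8.61 to 8.70 in Fe-1, 8.15 in Ler-0 and 7.10 in Nw-0, against 9.44 in Ts-1, 9.03 in Van-0 and 5.87 to 6.08 in Col-0. Like POL and RBL it was lowest in Col-0, a pattern with no overlap that 12.2% of all probe sets had in either direction, but it was highest in the other ZLL-independent accessions. Its difference by ZLL dependency turned with the weight of the accessions. Over arrays SQN averaged 7.96 in ZLL-dependent and 7.30 in ZLL-independent arrays, a difference of 0.66 that did not pass (SE 0.74, adjusted p = 0.688). Over accession means it averaged 7.61 in ZLL-dependent and 8.16 in ZLL-independent accessions, a difference of -0.54 that passed with the spread between replicates (adjusted p = 0.00313) and not with 1 mean per accession (adjusted p = 0.982). By ZLL dependency no measured gene of these lists passed over arrays, against 0.448% of all probe sets. At an unadjusted p under 0.05 there was 1 gene, ARR15, against 17.4% of all probe sets.

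**Figure D4:**
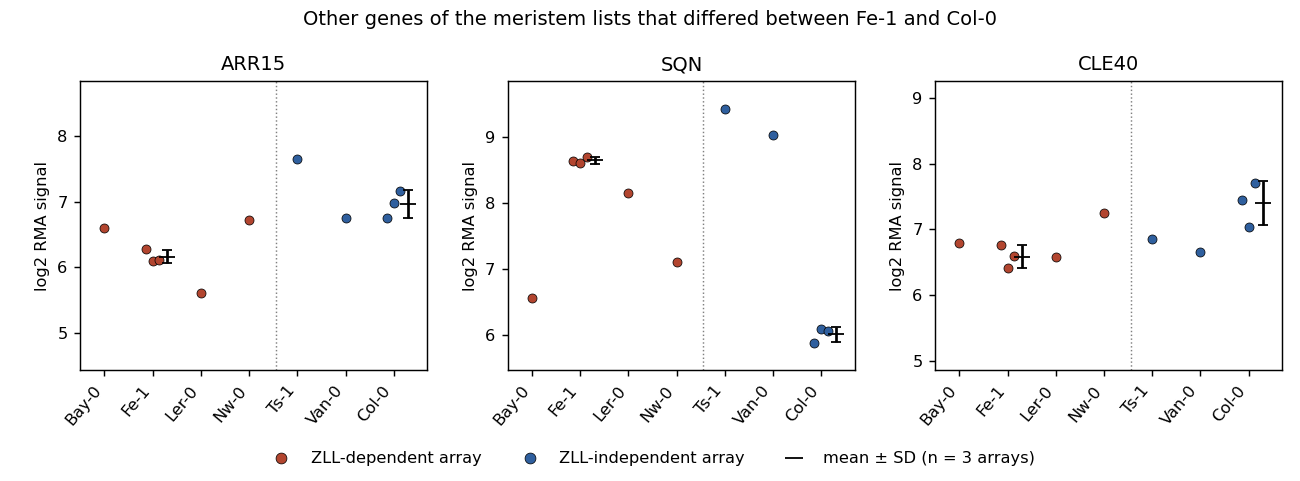
Log2 RMA signal (vertical axes) of ARR15, SQN (brighter probe set) and CLE40 by accession, with 1 point per array, ZLL-dependent accessions in red left of the dotted line and ZLL-independent ones in blue right of it, and mean ± SD for the 3 arrays of Fe-1 and of Col-0. ARR15 is at 5.62 to 6.72 in ZLL-dependent and 6.75 to 7.65 in ZLL-independent arrays, SQN is lowest in Col-0 and highest in Ts-1, and CLE40 is lower in Fe-1 than in Col-0.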

How the data were processed

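Torpedo-stage embryo RNA of 7 accessions was measured on 11 Affymetrix ATH1 arrays. The authors processed the arrays with RMA and deposited log2 signals per probe set, on which all tests were run. Neither its version nor the probe set definition is stated. RMA subtracts background, equalises the distributions of the arrays and summarises probes, so differences of dim genes are compressed. Arrays give no depth, and their number limits the precision.

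Of 22810 probe sets, 64 chip controls were left out. The platform annotation gave 1 gene to 13513 probe sets, several to 503 and did not list 8730. Of those with 1 gene, 13436 were matched through their Entrez number to the TAIR10.1 gene table, which gave loci and chromosomes. Genes without such a probe set were not analysed here.

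Differences were fitted in R 4.3.3 with limma 3.58.1 (lmFit, eBayes, 95% intervals) over all 22746 probe sets, with Benjamini-Hochberg adjustment and a threshold of 0.05 without a fold limit. Comparisons were ZLL-dependent with ZLL-independent arrays, Fe-1 with Col-0, and accession means over all arrays, whose error is that of the replicated accessions. Fits were tested on simulated data. The text names the 5 regulators, up to 4 called genes of each pathway list, and for each regulator the 3 probe sets with the highest Pearson correlation. The regulators and lists were chosen with earlier results of these data known. Alternatives changed the normalization, the filter on low values (lowest 25%), the probe sets, the variance prior, the arrays, the replicate block and the unit of replication. Replicates were labelled as biological, but separate harvests were not described, so p-values measure the spread between these samples. No scan date or other batch was given.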

Additional observations from a re-analysis of the deposited data

How the results depend on the processing

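Over arrays, the ZLL difference of CLV3, POL, RBL and LCR kept its direction under all 24 alternatives. None of the 5 genes passed in 21 of these, and 1 did in the fit of accession means (CLV3, -0.81), without Ler-0 and without Van-0. Leaving out each array gave 0 to 1 genes, and differences of -0.70 to -0.51 for CLV3, 0.31 to 0.43 for POL, 0.35 to 0.51 for RBL and -0.025 to 0.028 for ULT1. All probe sets called numbered 102, against 27 to 983 with 1 array left out (695 without Ler-0, 983 without Van-0), 20 without Col-0, 11 without Fe-1, 2282 in the fit of accession means, 34 with an ordinary t statistic, 3 with 1 mean per accession and 15 with accession as a random block (correlation 0.60), where CLV3 was at -0.76 (adjusted p = 0.532). ULT1, near 0 throughout, turned positive with the replicate block (0.0018) and without Col-0 (0.018). Between Fe-1 and Col-0 the count of 2 genes became 1 with the ordinary t statistic (POL 0.44) and 0 without the 3 arrays with the highest BAN signal (POL 0.53, RBL 0.76), with 6655 probe sets called against 3921 and 2031. ULT1 turned negative with repeated quantile normalization (-0.017), median centring (-0.093) and without the BAN arrays (-0.022), and each array left out gave -0.048 to 0.057. POL and RBL stayed called with any 1 array left out (2 genes each time). Among accessions, 3 genes became 0 with an ordinary F statistic (7056 probe sets against 2550) and 1 to 3 with 1 array left out.

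Fe-1 and Col-0 share replicate numbers. Deviations of same-numbered arrays correlated at 0.23, 0.035 and 0.11, and those of arrays with different numbers at -0.15 to 0.037. Replicates 1 and 3 were closest to their namesakes, and Fe-1 replicate 2 was about as close to Col-0 replicate 3 (0.037) as to its own. The numbers were not taken as pairs in the main fits, and whether same-numbered arrays shared a batch was not tested. With the replicate block, 2 genes stayed called between Fe-1 and Col-0 (POL 0.44 and RBL 0.67, with 6600 probe sets). None was called by ZLL dependency, where 36 probe sets passed. In that fit the accessions with 1 array all carried replicate number 1, so the block also set accessions apart. A second probe set was not tried, since no member has one.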

Other observations

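The chip annotation named 6 genes of the CLE family, to which CLV3 belongs, and these were listed after the annotation was seen. Between Fe-1 and Col-0, 2 were higher in Fe-1, CLE27 by 1.54 (adjusted p = 0.000462) and CLE41 by 1.18 (adjusted p = 0.000804), and 2 were lower, CLE40 and CLE44, the second by 0.81 (adjusted p = 0.00756). These were 4 of 6 called, against 29.3% of all probe sets. CLE41 and CLE44 encode the same peptide, which keeps vascular stem cells from differentiating into xylem. CLE41 gave 8.91 in Bay-0, 9.997, 9.83 and 9.67 in Fe-1, 9.56 in Ler-0 and 8.32 in Nw-0, against 9.45 in Ts-1, 7.83 in Van-0 and 8.83, 8.73 and 8.38 in Col-0. CLE44 gave 5.87 in Bay-0, 6.24, 6.12 and 6.13 in Fe-1, 5.09 in Ler-0 and 5.91 in Nw-0, against 6.11 in Ts-1, 6.17 in Van-0 and 7.36, 6.84 and 6.73 in Col-0. Col-0 was highest for CLE44 and lowest for CLE27, with no overlap with any other accession, as for 12.2% of all probe sets in either direction. CLE21 (3.41 to 3.80) and CLE26 (3.20 to 3.45) did not pass. Both lay under the lower quartiles of the arrays (4.92 to 5.04), and whether they exceeded background was not tested. By ZLL dependency, 0 of the 6 passed over arrays with limma, against 0.448% of all probe sets (2 of 6 at an unadjusted p under 0.05, against 17.4%), and CLE27 came closest, with a difference of 1.27 (adjusted p = 0.0795). In the fit of accession means 3 of 6 passed, against 10% of all probe sets, with CLE27 higher by 1.06 (adjusted p = 0.00313), CLE41 higher by 0.51 (adjusted p = 0.0321) and CLE44 lower by 0.66 (adjusted p = 0.0208) in ZLL-dependent accessions. With 1 mean per accession none passed and 1 of 6 was at an unadjusted p under 0.05, against 0.0132% and 4.99% of all probe sets.

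Of 6 genes of lateral organs and meristems listed in the same way (LAS, JAG, YAB3, YAB5, TSO1 and SPT), none passed with limma between Fe-1 and Col-0, against 29.3% of all probe sets, or by ZLL dependency over arrays, against 0.448%. At an unadjusted p under 0.05 there were 2 of 6 between Fe-1 and Col-0, against 40.4% of all probe sets, and 3 of 6 by ZLL dependency, against 17.4%. Their median differences were 0.17 in Fe-1 against Col-0 and 0.14 by ZLL dependency, beside 0.061 and 0.028 over all probe sets. LAS, at 4.13 to 4.71, lay under the lower quartiles of the arrays, and whether it exceeded background was not tested.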
